A study of Mus musculus with 12 samples.

Results

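Hepatic expression of the genes that burn fatty acids and make ketone bodies was compared between 3 groups of C57BL/6 mice. A list of 35 genes was followed and sorted into activation, carnitine shuttle, mitochondrial, peroxisomal and ketone steps, out of 11099 genes that could be tested. It was chosen by textbook roles, with earlier results of these data known. All mice were 8 weeks old at the start and were fed for 8 weeks with normal chow (NC), with the MCD+HF diet, which is deficient in methionine and choline and rich in fat, or with that diet containing 0.1% metformin (MCD+HF+Met). Each group held 4 mice with 1 Affymetrix array each, and the labels describe the livers as taken in the fasting state. The labels name no transgene and no agent other than metformin. The array summarises a gene's probes as the signal of a probe set, and where several probe sets named the same gene alone, that with the highest mean signal was taken. Of the 35 genes, 33 had a probe set of their own and all 33 were bright enough to be tested. Acsl1, the main acyl-CoA synthetase of the liver, had no probe set named for it, and Cpt1b, the muscle form of the carnitine palmitoyltransferase, was named only on a probe set shared with Chkb and Gm44502, so neither has a value.

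Fatty acids are first joined to coenzyme A by acyl-CoA synthetases. Long chains then cross the mitochondrial membranes as carnitine esters and are shortened in the matrix by chain-length specific dehydrogenases, a trifunctional protein, thiolases and auxiliary enzymes for unsaturated chains, with electrons passed on through the electron transferring flavoprotein. Peroxisomes shorten very long, branched and dicarboxylic chains with a separate set of enzymes and hand the products to mitochondria. In a fasted liver the acetyl-CoA that results is turned into ketone bodies, and many of these genes are targets of the nuclear receptor PPARα.

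Whole liver was hybridised, and fewer cells of a type and less RNA per cell cannot be told apart in such samples. Defining markers of hepatocytes were abundant in every mouse, with a summed signal over 9 markers of 104761 to 122803 on NC, 50228 to 64245 on MCD+HF and 56074 to 73349 on MCD+HF+Met. With the diet, 7 of the 9 were lower by the authors' scaling and 3 by quantile normalization. Summed over 10 markers of macrophages, the signal was 4544 to 5970.5 on NC, 8425 to 11189 on MCD+HF and 4009.8 to 6953 on MCD+HF+Met, and over 10 markers of stellate cells 2034 to 2597, 7039.8 to 9419.8 and 5336 to 7731. With the diet, 6 of the macrophage markers were higher and 1 lower and 9 of the stellate markers were higher, and with metformin 4 and 3 of them were lower. Markers of bile duct cells summed to 52.5 to 105 on NC and 434 to 583 on MCD+HF, with 6 of 6 tested markers higher. Of 10 endothelial markers 3 were higher and 3 lower with the diet, and of 4 tested genes of the adipocyte list Plin4 and Cidec were higher and Car3 lower. By comparison, 27.4% of all 11099 genes were higher and 20.8% lower with the diet. Quantile normalization gave 2750 higher and 2660 lower. With metformin 1.63% were higher and 2.34% lower. Beside these shares the endothelial counts, and the hepatocyte count under quantile normalization, are no result about those cells. The adipocyte markers Adipoq, Lep, Retn and Ucp1 had mean signals under 20 in every group. Of 8 lymphocyte markers 6 had means under 20 on NC, 7 on MCD+HF and 8 on MCD+HF+Met, and of 10 muscle markers 8, 10 and 10. On NC Cd8a stood at 21.45, Cd79b at 22.7, Ckm at 25.3 and Atp2a1 at 27.2. No lymphocyte or muscle marker was bright enough over all mice to test. The mean signal of an array, before extreme values are trimmed, was 199 ± 4.69 (SD, n = 4) on NC, 166 ± 4.30 on MCD+HF and 171 ± 4.50 on MCD+HF+Met. The ratio of 3′ to 5′ probe sets of actin, a sign of RNA integrity, was 1.73 ± 0.140, 1.54 ± 0.0694 and 1.74 ± 0.114. The part of these differences in the results below was not tested.

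The MCD+HF diet shifted the fatty acid oxidation genes in both directions. Compared with NC, 22 of the 33 genes differed at an adjusted p under 0.05, and 11 of them were higher and 11 lower, where 48.2% of all genes tested were called, 27.4% higher and 20.8% lower. Here and throughout, changes are differences in log2(signal + 10), fitted with limma across all 22830 probe sets tested, with Benjamini-Hochberg adjustment. The median change was -0.08 over the 33 genes and 0.05 over all genes. The balance of rises and falls depended on how arrays were put on one scale. Under quantile normalization 20 of the 33 genes were higher and 5 lower, with a median of 0.28. Of all 11099 genes, 2750 were then higher and 2660 lower, with a median of -0.01. All 11 rises of the list were also called under that scaling, as were the falls of Acad11, Acaa2, Decr2, Acaa1a and Crot. The falls of Eci1, Etfa, Etfb, Acox2, Abcd3 and Acsl5 were not. Without NC replicate 4 there were 12 rises and 7 falls, and without MCD+HF replicate 1 there were 12 rises and 6 falls. The shares of all genes called in these fits are not given here. A total of 14 calls, 10 rises and 4 falls, had an adjusted p under 0.05 in every alternative tried, and 9 of these also passed the methods' rule of an unadjusted p with a 1.5-fold difference.

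**Figure D1:**
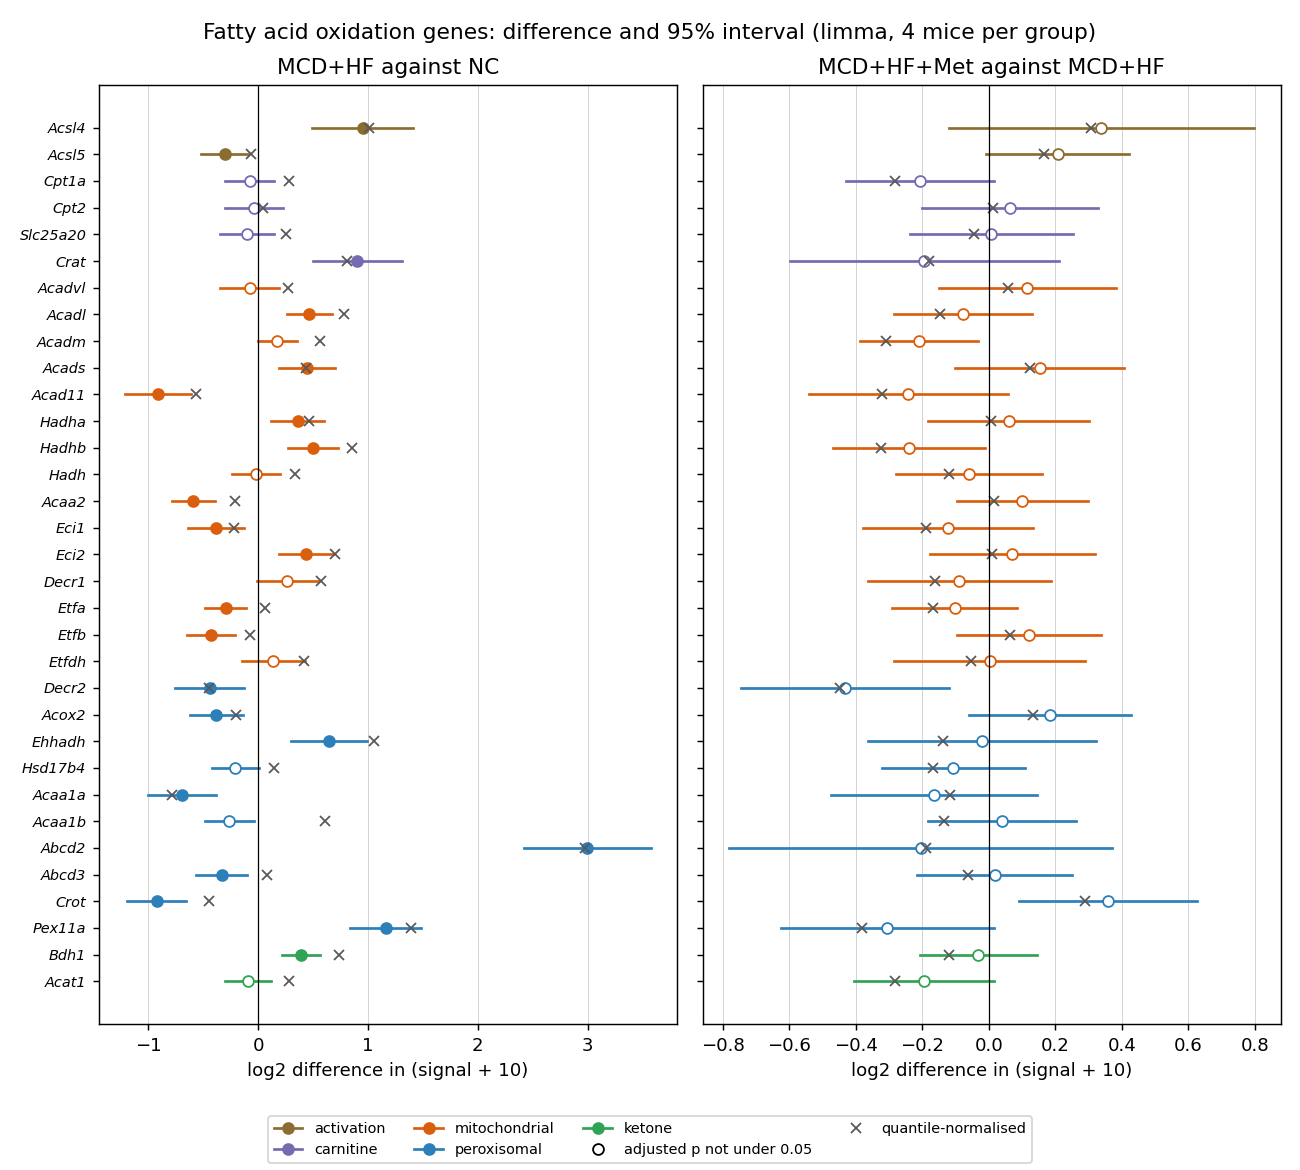
Difference in log2(signal + 10) of the 33 genes (points, limma, 4 mice per group) with 95% intervals, coloured by step, for the diet (left) and for metformin on the diet (right). Filled points have an adjusted p under 0.05 and crosses give the difference after quantile normalization. On the left Abcd2 stood at 3.00 and most crosses lay to the right of their points. On the right no point was filled.

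In the activation step, Acsl4, a synthetase that prefers arachidonic acid, rose. Its signals were 421, 591, 909 and 360.4 in NC mice and 1081, 1087, 1102 and 926 in MCD+HF mice (replicates 1 to 4 in this order, here and below). The groups did not overlap, though NC replicate 3 came close to the lowest MCD+HF mouse. The change was 0.95 (SE 0.22, adjusted p = 0.00209 from limma), or 1.94-fold. Its other probe sets rose as well, by 1.20 each. Acsl5, a synthetase of liver and intestine, fell by 0.31 in the authors' scaling (adjusted p = 0.0230). That call was lost under quantile normalization, at -0.06, and without NC replicate 4, MCD+HF replicate 1 or MCD+HF replicate 2. The methods' t-test also lost it after Benjamini-Hochberg adjustment, a step the methods do not name.

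The carnitine shuttle genes that carry long chains into mitochondria did not pass the test. Cpt1a, the gatekeeper of entry in liver, had signals of 2479, 2906, 3089.7 and 2637 on NC and 2365, 2269, 2940.5 and 3012 on MCD+HF. Both groups covered much the same range, and the change was -0.08 (95% interval -0.30 to 0.15, adjusted p = 0.588). The changes of Cpt2, the matrix-side transferase, and Slc25a20, the carnitine-acylcarnitine translocase, were -0.04 and -0.10. After quantile normalization Cpt1a and Slc25a20 were called higher, at 0.28 and 0.25. The other probe sets of Cpt1a, which may cross-hybridise, gave 0.50 (adjusted p = 0.0213) and 0.16 (adjusted p = 0.586) in the authors' scaling.

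Crat, the carnitine acetyltransferase that buffers acetyl-CoA, was the member of this step that rose. It read 131, 155, 144 and 146 in NC mice and 222, 191, 394 and 353 in MCD+HF mice. Every MCD+HF mouse lay above every NC mouse, and replicates 3 and 4 lay far above replicates 1 and 2. The change was 0.90 (SE 0.19, adjusted p = 0.00120). A second probe set rose by 0.58 (adjusted p = 0.0354), while the third, which may cross-hybridise, changed by 0.06.

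In the mitochondrial spiral 5 of 15 genes rose, 5 fell and 5 did not pass the test, with a median change of 0.14. Of all genes 27.4% were higher and 20.8% lower. Under quantile normalization 10 of the 15 were higher and 2 lower, with a median of 0.42, compared with 2750 higher and 2660 lower of all 11099 genes. The risers were 2 dehydrogenases, both subunits of the trifunctional protein and an isomerase. Acadl, the long-chain acyl-CoA dehydrogenase, rose by 0.47 (adjusted p = 0.00110) and Acads, the short-chain enzyme, by 0.44 (adjusted p = 0.00718), while Acadvl, for very long chains, changed by -0.08. Acadm, the medium-chain enzyme, had signals of 3373, 3945, 3515 and 4016 on NC and 3911, 3887, 4589 and 4392 on MCD+HF. The groups overlapped, and the change of 0.18 (95% interval -8.5e-04 to 0.35) had an adjusted p of 0.0997; quantile normalization gave 0.56 and a call.

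Hadha and Hadhb encode the α and β subunits of the mitochondrial trifunctional protein, which carries out the last steps of each cycle on long chains. Hadha gave 881, 967, 849 and 1074 in NC mice and 1053, 1077, 1511 and 1248 in MCD+HF mice. NC replicate 4 overlapped the lowest MCD+HF mouse, and the change was 0.36 (SE 0.11, adjusted p = 0.0177). That call was lost by the methods' t-test after Benjamini-Hochberg adjustment and without NC replicate 3 or MCD+HF replicate 3. Hadhb rose by 0.50 (SE 0.11, adjusted p = 0.00144), and its other probe sets rose by 0.37 and 0.70. The genes lie head to head on chromosome 5 with 272 bases between their starts.

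Eci2, an enoyl-CoA isomerase found in mitochondria and peroxisomes, rose by 0.44 (adjusted p = 0.00678). Among the genes that fell, Acad11, an acyl-CoA dehydrogenase family member, read 3476, 4389.5, 3886 and 4197 on NC and 1801, 1878, 2613 and 2237 on MCD+HF. The groups were far apart. Acad11 was counted here as mitochondrial and in an alternative as peroxisomal. Its change was -0.91 (SE 0.14, adjusted p = 7.9e-05), and a second probe set gave -0.84. Acaa2, the thiolase of the mitochondrial matrix, read 4107, 4704, 4395 and 5326 against 2734, 2920.1, 3322 and 3305. No MCD+HF mouse reached the lowest NC mouse, the change was -0.59 (SE 0.09, adjusted p = 9.3e-05), and all 3 of its probe sets were called lower. After quantile normalization the Acaa2 change was -0.21 (adjusted p = 0.0467), close to the threshold.

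The electron transferring flavoprotein subunits Etfa and Etfb fell by 0.29 and 0.43 in the authors' scaling, with changes of 0.06 and -0.08 and no call under quantile normalization, and the isomerase Eci1 likewise went from -0.38 to -0.22 and lost its call. The Eci1 call was lost as well by the methods' t-test after Benjamini-Hochberg adjustment and without NC replicate 4, MCD+HF replicate 1 or MCD+HF replicate 2. Etfdh, which passes these electrons to ubiquinone, Decr1, the dienoyl-CoA reductase, and Hadh, the short-chain hydroxyacyl-CoA dehydrogenase, changed by 0.14, 0.27 and -0.02 and did not pass the test. All 3 were called higher after quantile normalization. The other probe sets of Hadh, which may cross-hybridise, changed by -0.21 (adjusted p = 0.0583) and 0.26 (adjusted p = 0.457) in the authors' scaling.

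Peroxisomal genes held the largest rises and the largest fall of the list. Of 10 genes, 3 rose, 5 fell and 2 did not pass, with a median change of -0.30, where 27.4% of all genes were higher and 20.8% lower. Under quantile normalization 4 of the 10 were higher and 3 lower, with a median of 0.12, compared with 2750 higher and 2660 lower of all 11099 genes. Abcd2, a peroxisomal importer of very long and polyunsaturated acyl-CoA, read 13.8, 9.7, 17.4 and 55.9 on NC and 198, 217, 277 and 244 on MCD+HF. It was close to the lower limit of the signals in 3 NC mice and clearly measured in all MCD+HF mice. The change was 3.00 (SE 0.27, adjusted p = 3.4e-07), or 7.98-fold on this scale, and without NC replicate 4 it was 3.37. With NC signals this low the size of the change depends on that mouse and on the offset, and it was 3.61 with no offset and 2.30 with an offset of 32. Its other probe sets that were tested rose by 2.22 and 1.82.

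Pex11a, which promotes the division of peroxisomes, read 1059, 1287, 1099 and 1851 on NC and 2619, 2809, 3014 and 3186 on MCD+HF. All MCD+HF mice exceeded all NC mice. The change was 1.16 (SE 0.15, adjusted p = 1.5e-05), or 2.24-fold, and a second probe set rose by 1.48. Ehhadh, the bifunctional hydratase and dehydrogenase of the classical peroxisomal pathway, read 2199, 3371, 3295 and 2641 against 3495, 4213, 5143 and 5105. The groups just separated, and the change was 0.64 (SE 0.16, adjusted p = 0.00434).

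Crot, the octanoyltransferase that sends shortened chains from peroxisomes to mitochondria, had signals of 7056, 7807, 7548 and 6195 in NC mice and 3438, 3073, 4071 and 4599 in MCD+HF mice. The groups were clearly apart, and the change was -0.92 (SE 0.13, adjusted p = 2.4e-05). After quantile normalization it was still lower. Acaa1a and Acaa1b are near copies that encode peroxisomal thiolases. Acaa1a, measured only by a probe set that may cross-hybridise, read 301, 256, 303 and 316 against 152, 160.2, 221 and 186. Its groups did not overlap, with a change of -0.69 (SE 0.15, adjusted p = 0.00119), but a second such probe set changed by -0.12.

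Acaa1b read 9157, 12178, 11109 and 12579 on NC and 9679, 8415, 8856 and 10486 on MCD+HF. The groups overlapped through NC replicate 1, the change was -0.26 (95% interval -0.48 to -0.04, adjusted p = 0.0544), and under quantile normalization the direction turned, to 0.61 with a call. The 2 probe sets that read both copies changed by 0.19 (adjusted p = 0.299) and -0.16 (adjusted p = 0.375), so the thiolases remain uncertain as single genes. Decr2, the peroxisomal dienoyl-CoA reductase, fell by 0.44 (adjusted p = 0.0239), a call that was also made after quantile normalization. That call was lost by the methods' t-test after Benjamini-Hochberg adjustment and without NC replicate 4, MCD+HF replicate 1 or MCD+HF replicate 3. Acox2, the oxidase of branched chains and bile acid intermediates, and Abcd3, a transporter of branched and dicarboxylic acyl-CoA, fell by 0.38 and 0.33 in the authors' scaling but were not called after quantile normalization, where Abcd3 stood at 0.08. Both calls were also lost by the methods' t-test after Benjamini-Hochberg adjustment and without MCD+HF replicate 1. That of Abcd3 was lost without NC replicate 2 or 4, without MCD+HF replicate 2 and with the mean over its probe sets, at -0.0093. Hsd17b4, the second bifunctional enzyme, changed by -0.21 (adjusted p = 0.114) and by 0.15 under quantile normalization. Its other probe set, which may cross-hybridise, changed by 0.16 (adjusted p = 0.127) in the authors' scaling.

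**Figure D2:**
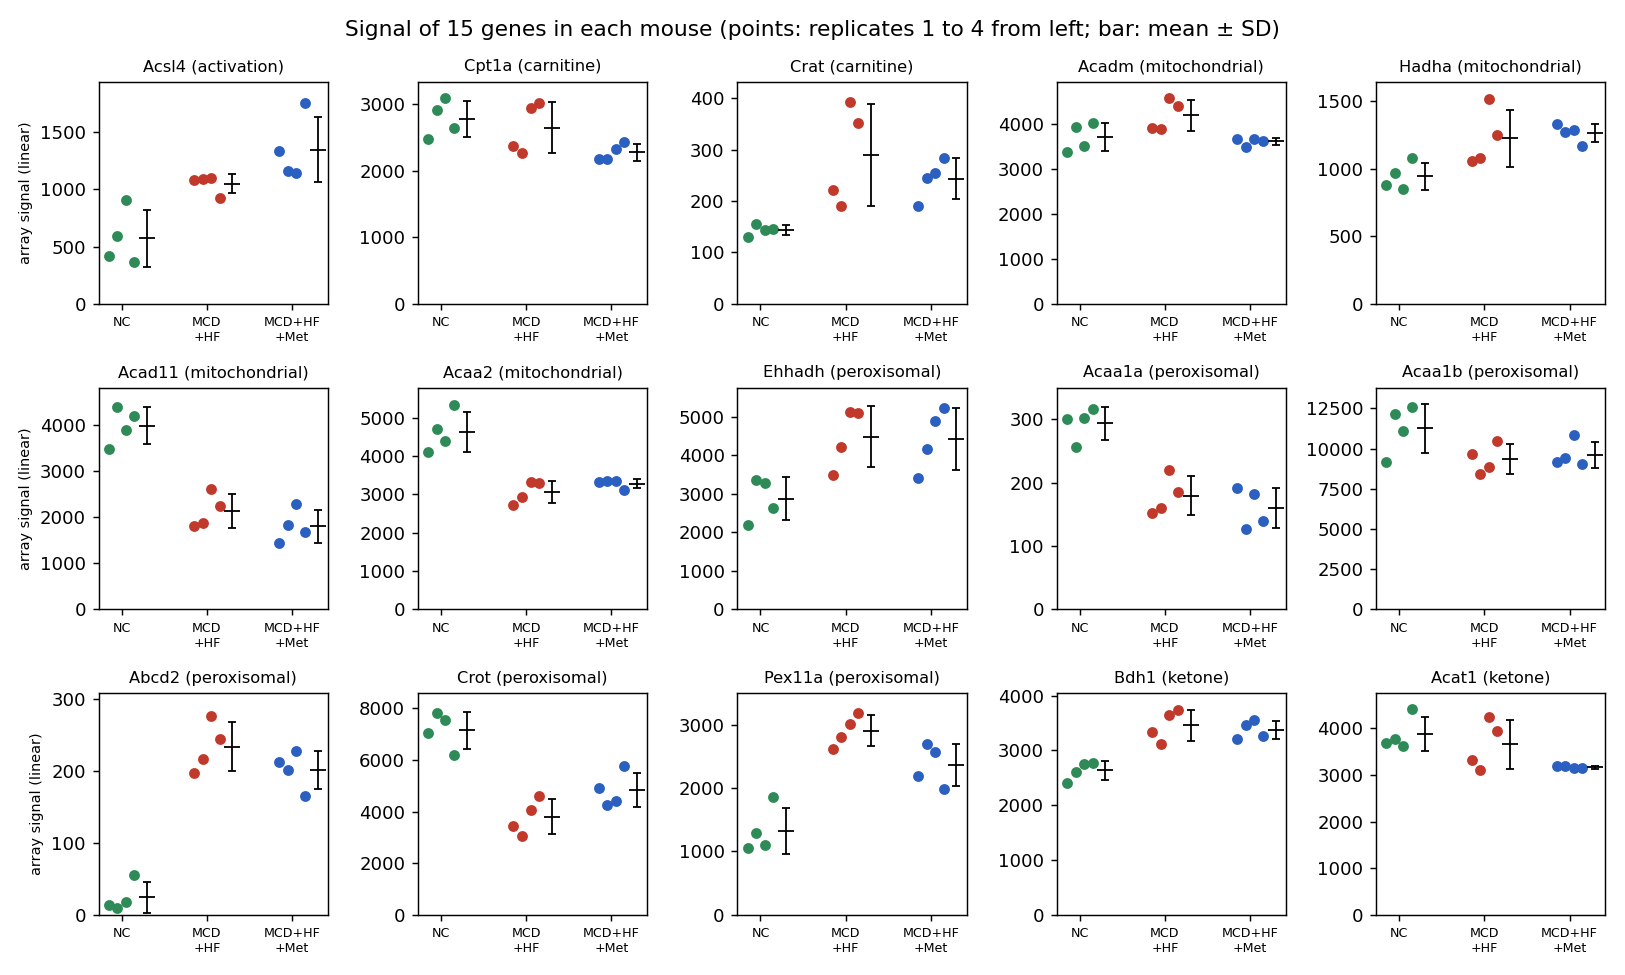
Array signal on a linear axis from 0 for 15 genes in each mouse, by group; points are replicates 1 to 4 from left to right and the bar is the mean ± SD (n = 4). Abcd2, Pex11a, Ehhadh, Crat, Acsl4 and Bdh1 stood higher and Acad11, Acaa2, Acaa1a and Crot lower in both diet groups than on NC, with Abcd2 at a mean of 24.2 on NC and 234 on MCD+HF.

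For ketone bodies, Bdh1, the mitochondrial enzyme that turns acetoacetate into 3-hydroxybutyrate, read 2404, 2609, 2747 and 2777 on NC and 3331, 3112, 3648 and 3737 on MCD+HF. All MCD+HF mice lay above all NC mice. The change was 0.39 (SE 0.08, adjusted p = 0.00129), and a dimmer probe set rose by 1.19 (adjusted p = 1.4e-07). Acat1, the mitochondrial acetoacetyl-CoA thiolase, read 3697, 3764, 3616 and 4417 against 3327, 3104, 4238 and 3948. The groups overlapped and the change was -0.09 (95% interval -0.30 to 0.12, adjusted p = 0.488). Its probe sets disagreed: a second changed by 0.21 (adjusted p = 0.182) and the dimmest rose by 1.07 (adjusted p = 2.3e-05). Under quantile normalization the chosen probe set was called higher, at 0.28.

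Promoter sequences were available in RefSeq (GRCm38.p6) for 28 of the 35 genes. The 250 bases before each start were searched on both strands for AGGTCA repeated on the same strand with 1 base between (DR1), the element that PPARα and RXR bind. No gene of the list held it with up to 1 mismatch, as against 0.566% of all 27025 genes with a window. With up to 2 mismatches it was in 1 of 28, Etfa, as TTACCTTTGCCCT at 77 bases before the start and on the opposite strand, and in 3.72% of all genes. A CCAAT box was in 14 of 28 windows and in 37.5% of all, and a GGGCGG box in 17 of 28 and in 35.4% of all; all genes here include non-coding ones. Shown are the windows of Hadhb (chr5:30155003-30155252, plus strand), which takes in most of the stretch shared with Hadha, of Ehhadh (chr16:21787835-21788084, minus strand) and Pex11a (chr7:79743132-79743381, minus strand), which rose, and of Crot (chr5:8997147-8997396, minus strand), which fell. Each is written 5′ to 3′ along its gene and ends at the base before the start, and capitals mark CCAAT and GGGCGG boxes on either strand.
Hadhb: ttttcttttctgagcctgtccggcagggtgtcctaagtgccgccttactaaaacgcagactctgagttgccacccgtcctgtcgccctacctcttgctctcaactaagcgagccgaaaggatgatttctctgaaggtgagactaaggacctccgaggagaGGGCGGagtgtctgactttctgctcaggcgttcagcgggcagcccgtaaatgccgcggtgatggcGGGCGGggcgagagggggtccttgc
Ehhadh: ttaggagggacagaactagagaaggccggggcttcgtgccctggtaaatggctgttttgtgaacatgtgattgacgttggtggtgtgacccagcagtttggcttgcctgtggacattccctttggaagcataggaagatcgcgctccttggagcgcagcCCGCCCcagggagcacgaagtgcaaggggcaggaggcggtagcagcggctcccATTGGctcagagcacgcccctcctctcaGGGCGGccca
Pex11a: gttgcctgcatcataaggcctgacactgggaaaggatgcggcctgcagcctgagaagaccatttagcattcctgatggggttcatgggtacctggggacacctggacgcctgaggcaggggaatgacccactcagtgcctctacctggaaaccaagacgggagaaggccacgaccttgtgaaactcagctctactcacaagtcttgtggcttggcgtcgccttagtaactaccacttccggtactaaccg
Crot: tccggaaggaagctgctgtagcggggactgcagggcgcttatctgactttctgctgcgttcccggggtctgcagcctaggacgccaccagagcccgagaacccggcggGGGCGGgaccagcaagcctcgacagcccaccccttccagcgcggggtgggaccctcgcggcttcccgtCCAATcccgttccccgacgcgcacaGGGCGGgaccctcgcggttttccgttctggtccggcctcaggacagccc
Hadhb, Ehhadh and Crot each hold 2 GGGCGG boxes, Ehhadh and Crot each 1 CCAAT box, and Pex11a none of either, so genes that rose and the gene that fell shared these letters. A match or its absence in such a window says nothing of which factor acts there.

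When metformin was added to the MCD+HF diet, no fatty acid oxidation gene passed the test. limma called 0 of 33 between MCD+HF+Met and MCD+HF, where 3.97% of all genes were called, 1.63% higher and 2.34% lower. Beside a share that small, a count of 0 among 33 is no result about these genes. The methods' t-test also called 0, both after Benjamini-Hochberg adjustment and by the 1.5-fold rule with an unadjusted p. At an unadjusted p under 0.05, 4 of the 33 genes differed by limma, compared with 2197 of all 11099 genes. The median change was -0.03 over the 33 genes and 0.01 over all genes, and the changes ran from -0.43 to 0.36. A p that misses the threshold does not show equal expression, and the intervals give the sizes the data allow.

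Cpt1a read 2179, 2171, 2318 and 2429.6 in MCD+HF+Met mice, a range whose top lay within that of the MCD+HF mice. The change was -0.21 (95% interval -0.43 to 0.01, adjusted p = 0.297). Acadm read 3663, 3496, 3667 and 3631. All 4 values lay below the lowest MCD+HF mouse, with a change of -0.21 (95% interval -0.39 to -0.03, adjusted p = 0.179). Under quantile normalization Acadm changed by -0.31 (adjusted p = 0.0267) and Hadhb by -0.32 (adjusted p = 0.0380), and these 2 were called lower. That scaling called 215 of all 11099 genes higher and 244 lower. By the authors' scaling Hadhb changed by -0.24 (95% interval -0.47 to -0.01, adjusted p = 0.236).

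Decr2 and Crot had the largest changes of opposite direction. Decr2 read 437, 458, 379.6 and 591 on MCD+HF and 353, 274, 345 and 395 on MCD+HF+Met. Replicate 3 of the MCD+HF mice lay within the metformin range, and the change was -0.43 (95% interval -0.75 to -0.12, adjusted p = 0.118). Crot read 4924, 4264, 4422 and 5754 on MCD+HF+Met. The highest MCD+HF mouse lay above 2 of the metformin mice, all metformin mice lay below all NC mice, and the change was 0.36 (95% interval 0.09 to 0.63, adjusted p = 0.130).

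The genes that rose most with the diet gave 213, 201, 228 and 165 for Abcd2, 2194, 2703, 2570.4 and 1978 for Pex11a, 1335, 1156, 1142 and 1752 for Acsl4 and 190.5, 246, 254 and 285 for Crat. Their changes from MCD+HF were -0.21 (95% interval -0.78 to 0.37), -0.31 (-0.63 to 0.01), 0.34 (-0.12 to 0.80) and -0.19 (-0.60 to 0.21). The highest MCD+HF+Met mouse of Pex11a reached into the MCD+HF range, and all metformin mice were above the MCD+HF mice for Acsl4. Acad11 read 1431, 1831, 2282 and 1686, Acaa2 3330.1, 3351, 3341 and 3106, and Acaa1a 191, 126, 183 and 139. These overlapped MCD+HF, with changes of -0.24, 0.10 and -0.16.

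Of the genes that stand for the other steps, Hadha read 1326, 1269, 1286 and 1168, Ehhadh 3409, 4179, 4894 and 5232 and Acaa1b 9150.1, 9426, 10827 and 9042 on MCD+HF+Met. All overlapped the MCD+HF mice. Their changes were 0.06 (95% interval -0.18 to 0.30), -0.02 (-0.36 to 0.32) and 0.04 (-0.18 to 0.26). Bdh1 read 3205, 3458, 3564 and 3270.3, with a change of -0.03 (-0.21 to 0.14), and Acat1 3184, 3193, 3145 and 3139.7, with a change of -0.20 (-0.41 to 0.02). The 4 Acat1 values differed by little among themselves and lay near the lower of the MCD+HF mice.

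Livers of MCD+HF+Met mice were also set against NC, a comparison that shares the NC mice with the first and the metformin mice with the second. limma called 22 of 33 genes, 10 higher and 12 lower, against 44.2% of all genes, 25.6% higher and 18.6% lower. Quantile normalization gave 16 higher and 4 lower, compared with 2675 higher and 2167 lower of all 11099 genes. Without NC replicate 2, and likewise without MCD+HF+Met replicate 1, the falls numbered 7. The shares of all genes called lower in these fits are not given here. Abcd2 stood 2.79 above NC, Acsl4 1.29, Pex11a 0.86 and Crat 0.71, and Crat lost its call with the mean over its probe sets, at 0.29 (adjusted p = 0.163). Acad11 stood at -1.15, Decr2 at -0.87, Acaa1a at -0.86 and Crot at -0.57, the last losing its call under quantile normalization, at -0.15. Cpt1a (-0.28, adjusted p = 0.0416) and Acat1 (-0.29, adjusted p = 0.0319) were called lower by the authors' scaling and stood at about 0 under quantile normalization. Their probe sets disagreed in the authors' scaling. The others of Acat1 gave 0.63 (adjusted p = 0.00273), a call in the other direction, and -0.09 (adjusted p = 0.576). Those of Cpt1a, which may cross-hybridise, gave 0.20 and 0.19 without a call. The Cpt1a call was lost in 5 and the Acat1 call in 6 of the 8 fits that left out an NC or MCD+HF+Met mouse.

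**Figure D3:**
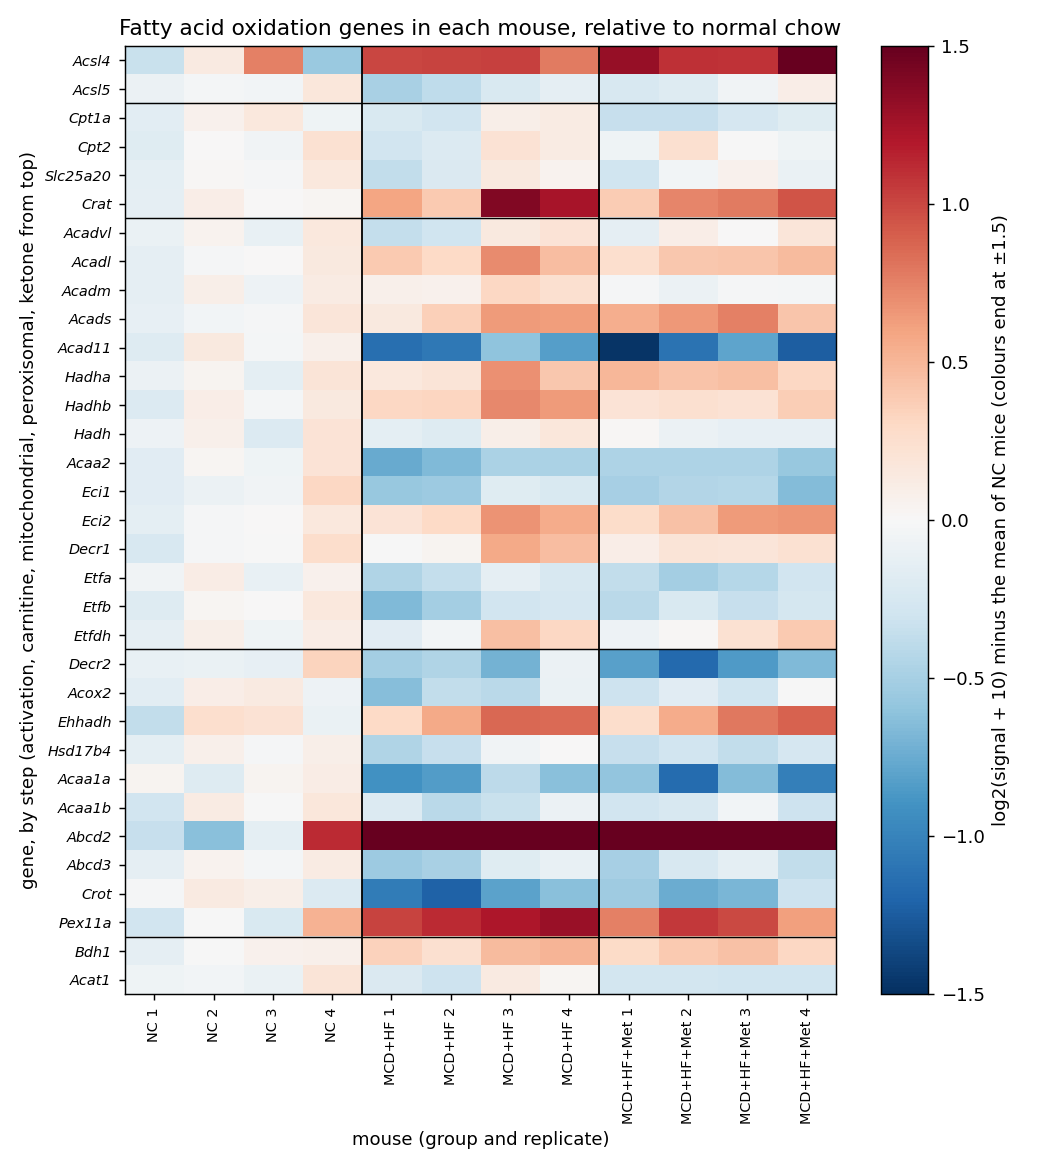
log2(signal + 10) of each of the 33 genes (rows, by step) in each of the 12 mice (columns) minus the mean of the NC mice; red is higher, blue lower, and colours end at ±1.5. Abcd2, Pex11a, Acsl4 and Crat are red and Acad11, Acaa1a and Crot blue in all 8 diet mice, and MCD+HF 3 and 4 are redder than MCD+HF 1 and 2 in most rows.

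Mice of one group did not vary independently from gene to gene. In the MCD+HF group, replicates 3 and 4 were both above replicates 1 and 2 in 29 of the 33 genes (87.9%), compared with 22.6% of all genes; after quantile normalization it was 26 of 33 (78.8%) compared with 25.8%. The same order held in 8 of 9 hepatocyte markers, and in 4 of 9 after quantile normalization. Replicates 3 and 4 were both below replicates 1 and 2 in 9 of 10 stellate and 5 of 10 macrophage markers, compared with 30.4% of all genes. They were both above them in 0 and 4. The part of these cell markers in the order of the mice was not tested. The median deviation of the 33 genes from their group means was -0.20, -0.15, 0.19 and 0.16 in MCD+HF replicates 1 to 4. The mean signals of these arrays were 163, 163, 168 and 172. In the NC group replicate 1 was below the group mean in 32 of 33 genes and replicate 4 above it in 28. Among all genes, 54.2% were above the group mean in NC replicate 1 and 52.0% in NC replicate 4. This ordering was noticed after the values were seen and is given as a description.

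Other genes of the same pathways were counted by list. Over these lists 50 of 74 genes tested were called with the diet, 17 higher and 33 lower. Of all genes 27.4% were higher and 20.8% lower, and these shares stand beside each diet count of a list below. Under quantile normalization 2750 of all 11099 genes were higher and 2660 lower. With the diet, 12 of 22 other peroxisomal enzymes and carriers were lower and 4 higher, the same counts as under quantile normalization, with a median of -0.39. Nudt7, a peroxisomal coenzyme A diphosphatase, fell by 2.45 (adjusted p = 5.4e-09), Phyh, which hydroxylates phytanoyl-CoA, by 1.59 and Amacr, the racemase of branched acyl-CoA, by 1.499. Acot4, a peroxisomal thioesterase, rose by 2.01 (adjusted p = 5.2e-07). Of 11 peroxisome assembly genes 4 were lower, among them Pex6 at -0.78 (adjusted p = 1.2e-04), and 0 higher. At an unadjusted p under 0.05, 5 genes of this list differed, compared with 6108 of all 11099 genes. Quantile normalization called 5 of the list lower and 1 higher.

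Mitochondrial enzymes for branched and short acyl-CoA mostly fell. Of 15, 9 were lower and 1 higher, and 10 and 1 under quantile normalization, with a median of -0.49. The list also took in Acad9, Acad10 and Acad12, which its name may not describe. The gene higher in the authors' scaling was Acad12, with a mean signal of only 17.9 on NC and 42.85 on MCD+HF. Acadsb, the dehydrogenase of short branched chains, fell by 1.38 (adjusted p = 2.0e-07) and Ivd, that of isovaleryl-CoA, by 1.19. Slc22a5, the plasma membrane carnitine transporter, rose by 1.08 (adjusted p = 7.7e-04), while Bbox1 and Aldh9a1 of carnitine synthesis fell by 0.40 and 0.43, calls that were not made under quantile normalization.

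Of 5 tested genes of ketone transport and use, 3 rose and 1 fell. Oxct1, which activates acetoacetate for use as fuel and is low in normal hepatocytes, read 38.5 ± 5.84 on NC and 190.2 ± 58.8 on MCD+HF (SD, n = 4), a change of 2.01 (adjusted p = 1.4e-06). The monocarboxylate transporters Slc16a7 and Slc16a1 rose by 0.76 and 0.46, and Bdh2, a cytosolic dehydrogenase, fell from a mean signal of 127 to 37.7 (adjusted p = 7.1e-06). Of 10 PPAR-regulated genes outside the list, 6 rose and 2 fell, the same counts as under quantile normalization. Pdk4, the kinase that shuts off pyruvate dehydrogenase, went from 36.8 ± 8.31 to 3777 ± 1074, a change of 6.31 (adjusted p = 5.9e-11). Fgf21, a hormone of the fasted liver, rose by 2.24 and Acot1, a cytosolic thioesterase, by 2.13, while Fabp1, the fatty acid binding protein of hepatocytes, fell by 1.14. Of 7 regulators of oxidation 2 rose and 3 fell, the same counts in both scalings, with Ppargc1a, a coactivator of mitochondrial genes, at 1.54 (adjusted p = 0.00135) and Sirt3, a mitochondrial deacetylase, at -0.84 (adjusted p = 1.9e-04).

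With metformin 3 of the 74 genes of these lists (4.05%) were called, a share near the 3.97% of all genes, so the count is no result about the lists. Quantile normalization gave the same counts in each list. Oxct1 fell by 0.92 (adjusted p = 0.0243), to 95.4 ± 30.9, and Mlycd, which removes the malonyl-CoA that blocks Cpt1a, fell by 0.48 (adjusted p = 0.0360). Pparg, the adipose relative of PPARα, rose by 0.70 (adjusted p = 0.0390), from 58.7 ± 13.0 to 101 ± 18.3. Pdk4 changed by -0.72 (adjusted p = 0.130) and Ppargc1a by -0.86 (adjusted p = 0.166), neither past the threshold. In the assembly, branched-chain, carnitine and PPAR lists limma called 0 genes. At an unadjusted p under 0.05 there were 1 of 11, 1 of 15, 1 of 4 and 3 of 10, compared with 2197 of all 11099 genes. Of the 10 macrophage markers 4 were lower in the same mice.

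**Figure D4:**
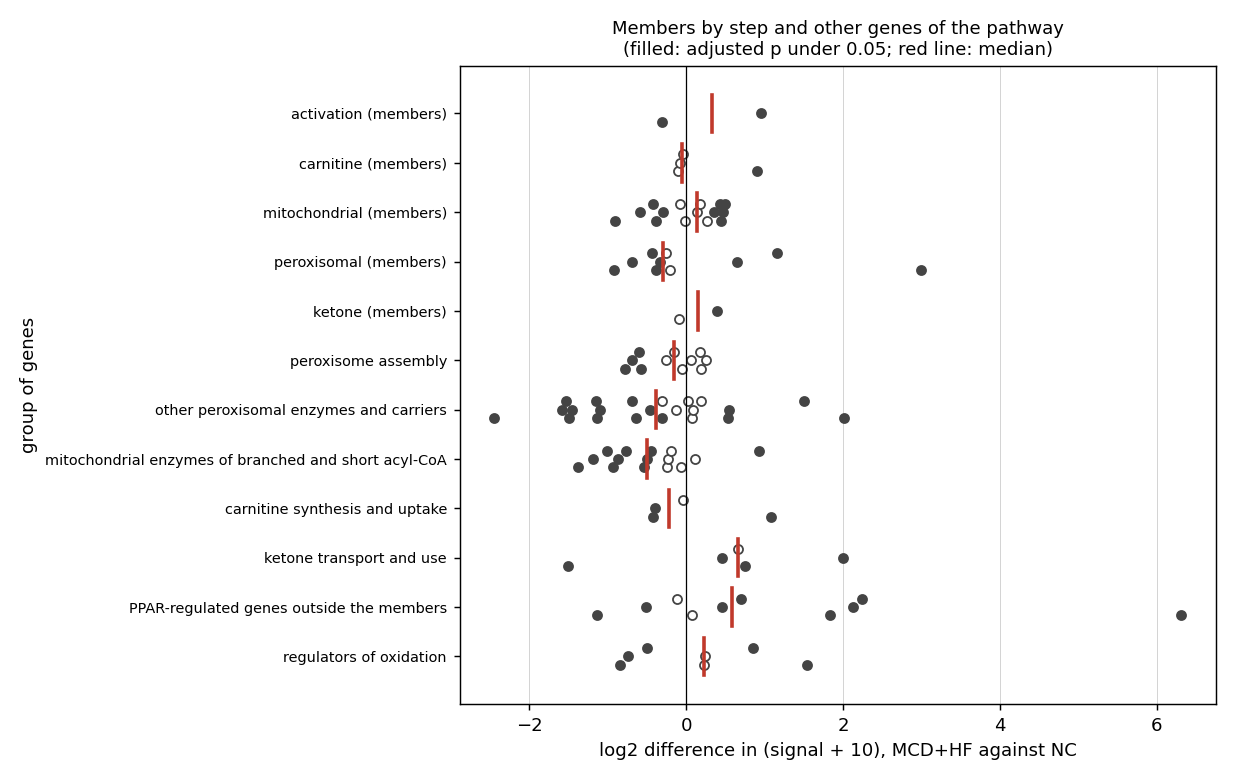
Change with the MCD+HF diet against NC in log2(signal + 10) for the genes followed, by step, and for other lists of the pathway; each point is a gene, filled where the adjusted p is under 0.05, and the red line is the median of the list. The members of the mitochondrial step lie within 1 of 0 while Pdk4, at 6.31, is the farthest point and most branched and short acyl-CoA enzymes lie left of 0.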

How the data were processed

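Gene expression was measured with 1 array per mouse in 12 livers. The authors computed a signal intensity for each probe set in GCOS with default settings, after global scaling of each array to a mean of 100, and the deposited intensities are linear and cover 45101 probe sets, 64 of them controls. The mean of each array was 100 once 2% of values in each tail was left out.

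From these intensities log2(signal + 10) was taken, controls and probe sets with a mean signal under 20 were left out, and 22830 probe sets were fitted in limma 3.58.1 (R 4.3.3; lmFit, eBayes with trend) with a term for group. Adjusted p-values are Benjamini-Hochberg values over all of them, at a threshold of 0.05. The scale understates changes of dim probe sets, and the number of arrays limits the precision. Names came from the platform's annotation, where 34945 probe sets had 1 symbol, 932 several and 9160 none, updated for 34741 through gene identifiers in RefSeq GRCm38.p6. Genes were represented by the probe set of highest mean signal, with probe sets ending in _x_at used only where no other existed. The fit was tested on simulated data. GCOS detection and change calls were not used here.

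Genes with values in every mouse were Cpt1a, Acadm, Hadha, Ehhadh, Acaa1b, Bdh1 and Acat1, which stand for the steps, and the 4 largest rises and falls with the diet; Decr2 was added after its values were seen. The members, their steps and the pathway and marker lists were chosen with earlier results of these data known, and the promoter boxes after the values were seen. Some genes of the pathway are not reported here, and a comparison of protein sequences was not run. Alternatives were offsets of 0 and 32, no filter or a mean signal of at least 50, a block for the replicate number, quantile normalization, only the groups compared, a robust variance, the methods' t-test (with Benjamini-Hochberg adjustment, or unadjusted with a 1.5-fold difference), each array left out, the mean over the probe sets of a gene, and Acad11, Eci2 and Crat counted as peroxisomal. Deviations of same-numbered mice from their group means correlated at -0.134 to 0.251, highest between replicate 4 of MCD+HF and of MCD+HF+Met. With 4 mice per group such values cannot exclude a pairing. The labels give none, and the mice were fitted as unpaired. Figures used matplotlib 3.10.9 in Python 3.11.15.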

Additional observations from a re-analysis of the deposited data

Results flagged for a closer look

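In 4 of the 99 sets of 4 mice that were examined, 1 mouse stood apart from the others of its group by Dixon's criterion, which chance meets in about 1 of 20. Decr2 had its highest NC signal, 798.1, in replicate 4, against 576 to 585 in the other NC mice. Abcd2 had its highest NC signal, 55.9, in the same mouse, with the others at 9.7 to 17.4. Acsl4 was lowest among MCD+HF mice in replicate 4, at 926.5. Acaa2 was lowest among MCD+HF+Met mice in replicate 4, at 3105.6, against 3330.1 to 3351 in the other 3.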

How the results depend on the processing

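Quantile normalization was the choice that moved most values. It took the median change with the diet from -0.08 to 0.28 over all genes followed, to 0.27 in the carnitine, 0.42 in the mitochondrial, 0.12 in the peroxisomal and 0.51 in the ketone step, and that between MCD+HF+Met and NC to 0.22 over all of them and, in the same order of steps, to 0.14, 0.33, 0.00101 and 0.31. It turned the direction with the diet of Cpt1a (0.28), Cpt2 (0.050), Slc25a20 (0.25), Acadvl (0.27), Hadh (0.34), Etfa (0.059), Hsd17b4 (0.15), Acaa1b (0.61), Abcd3 (0.084) and Acat1 (0.28), with metformin of Acaa1b (-0.14), Slc25a20 (-0.043), Etfdh (-0.054) and Abcd3 (-0.062), and in MCD+HF+Met against NC of Acaa1b (0.47, called), Acadm (0.26, called), Hadh (0.22), Slc25a20 (0.21), Acsl5 (0.10), Abcd3 (0.022), Acat1 (0.00235) and Cpt1a (9.0e-04). With metformin it called 2 genes, where the authors' scaling gave 0. The cause was not tested. The mean over the probe sets of a gene moved the ketone median to 0.59 with the diet and 0.43 in MCD+HF+Met against NC, where the median over all genes followed became 0.039, and among the genes named in each comparison it turned Cpt1a (0.19), Hadh (0.012) and Acat1 (0.40) with the diet, Cpt1a (0.034) and Acat1 (0.085) in MCD+HF+Met against NC, and Acaa2 with metformin (-0.043). The methods' t-test with a 1.5-fold difference called 9 genes with the diet and 9 in MCD+HF+Met against NC; after Benjamini-Hochberg adjustment it called 16 and 20. With each array left out in turn, 18 to 24 genes were called with the diet, 0 with metformin and 17 to 23 in MCD+HF+Met against NC. Among the same genes, changes near 0 turned direction there: with the diet Cpt2 ran from -0.12 to 0.046, Acadvl from -0.17 to 0.018 and Hadh from -0.084 to 0.051, and with metformin Hadha from -0.0064 to 0.17, Acaa1b from -0.019 to 0.10, Ehhadh from -0.14 to 0.10 and Bdh1 from -0.082 to 0.0062. With the replicate number as a block, 23 genes were called with the diet, 23 in MCD+HF+Met against NC and 1 with metformin, Decr2 at -0.43 (adjusted p = 0.0487). By the labels these mice share only a number. Shares of all genes called by the t-test, with an array left out and with the block are not given here. These counts therefore do not tell whether the genes followed moved differently from the rest. Of the diet calls 14 of 22, and of those between MCD+HF+Met and NC 12 of 22, had an adjusted p under 0.05 in every alternative; 9 and 7 of these also passed the methods' 1.5-fold rule. The number of arrays limits the precision, and Abcd2 was near the lower limit of signal on NC, so its change depends on the offset.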
